A study of Rattus norvegicus with 46 samples.

Results

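Progress through the cell cycle was followed with 57 rat genes of DNA replication and mitosis, chosen by symbol from textbook roles and with earlier results of these data known. Of the 57, 54 stood in the deposited gene tables, which held 23747 symbols in all, and 46 could be tied to transcripts with counts in every library. The expression of Ccnb2, Chek1 and E2f1 is not analysed here, but the promoters of Ccnb2 and Chek1 are counted below. Of the 23 replication members 19 had counts per library, of the 30 mitosis members 24, and of the 4 genes placed in neither class (Mki67, Top2a, Ccna2 and Melk) 3.

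The study asked how the subacromial bursa, the thin synovial sac that lies over the rotator cuff, takes part in the response of the supraspinatus tendon to injury. In Rattus norvegicus the supraspinatus tendon was cut (tenotomy), and the bursa was either left in place or taken out (bursectomy). Tendon and remaining bursa were collected 3 or 14 days later and sequenced as bulk RNA. Strain, sex and age were not used here.

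The bursa gave 3 groups: 5 control libraries from rats without surgery, and 6 libraries at day 3 and 6 at day 14 after tenotomy, from shoulders where it had been kept. The tendon gave 5 control libraries from rats without surgery and 4 operated groups of 6 libraries: tenotomy with the bursa intact at day 3 and at day 14, and tenotomy with the bursa removed at day 3 and at day 14. No group had a sham operation, so tenotomy and the surgery around it cannot be told apart. The study describes the tendons as bilateral and internally controlled within a rat. Which libraries share a rat is not labelled, so the tests treat all libraries as independent and do not use that pairing.

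A dividing cell copies its DNA once, in S phase, and then parts the copies in mitosis. The helicase subunits Mcm2 to Mcm7, loaded by Cdc6 and Cdt1, open the double helix, the sliding clamp Pcna holds the polymerases on it, and ribonucleotide reductase (Rrm1 with Rrm2), thymidylate synthase (Tyms) and thymidine kinase (Tk1) supply nucleotides. Entry into mitosis is driven by cyclin B (Ccnb1) with Cdk1 and by the polo kinase Plk1, and the chromosomes are then parted by a spindle built with kinesin motors (Kif11, Kif20a, Kif23, Kif4a, Kif2c) under the watch of checkpoint kinases (Bub1, Bub1b, Ttk). Resting tendon and synovial tissue hold few dividing cells. In bulk tissue, fewer cells of a type and less RNA per cell cannot be told apart, which applies to every level below.

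Library totals ran from 12.4 M to 69.9 M estimated counts. In control bursa, libraries 1 and 2 stood apart, with 48.9% and 53.5% of counts on mitochondrial transcripts, against 13.3% to 17% in the other 3. Results that use the control bursa are therefore given with all 5 libraries, and some counts of called members also without these 2. Fold changes over control bursa are given with all 5 libraries only. The control tendon libraries carried skeletal muscle transcripts, with a summed level of 6 matched muscle markers of 31870 to 51740 CPM (counts scaled to a common library total), and these fell to between 2144 and 6671 CPM in tendon at day 3 with the bursa intact. The 6 fibroblast markers went from a median of 13620 CPM in control tendon to 57760 at day 3 with the bursa intact and 89260 at day 14, and the 6 matched monocyte and macrophage markers from 985 to 4633 and 1972 CPM. The bursa showed the same order for the macrophage markers, with medians of 1033, 3014 and 1775 CPM. Their part in the results below was not tested.

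Levels are CPM on library totals scaled by the trimmed mean of M values (TMM). Differences are log2 fold changes with their standard error (SE) from edgeR's quasi-likelihood test, with Benjamini-Hochberg adjustment over every feature tested, and a member was called where its adjusted p fell below 0.05. All 46 members with counts passed the filter on low counts, but 22 in the bursa and 16 in the tendon passed only through the operated groups, so the counts of members describe the data and are not evidence on their own. At day 3 after tenotomy all 46 members rose in the tendon with the bursa intact, 46 rose with the bursa removed, and 45 of 46 rose in the bursa. Over all features the shares called higher were 32.3%, 30.5% and 21.9%, respectively. The median log2 fold change of the members was 4.30 in tendon with the bursa intact, 4.13 with it removed and 3.28 in the bursa, beside medians of -0.01, -0.02 and -0.06 over all features tested. Every operated library lay above every control library for 46, 45 and 42 members, respectively, and for 22.8%, 18.3% and 13.5% of all features.

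**Figure D1:**
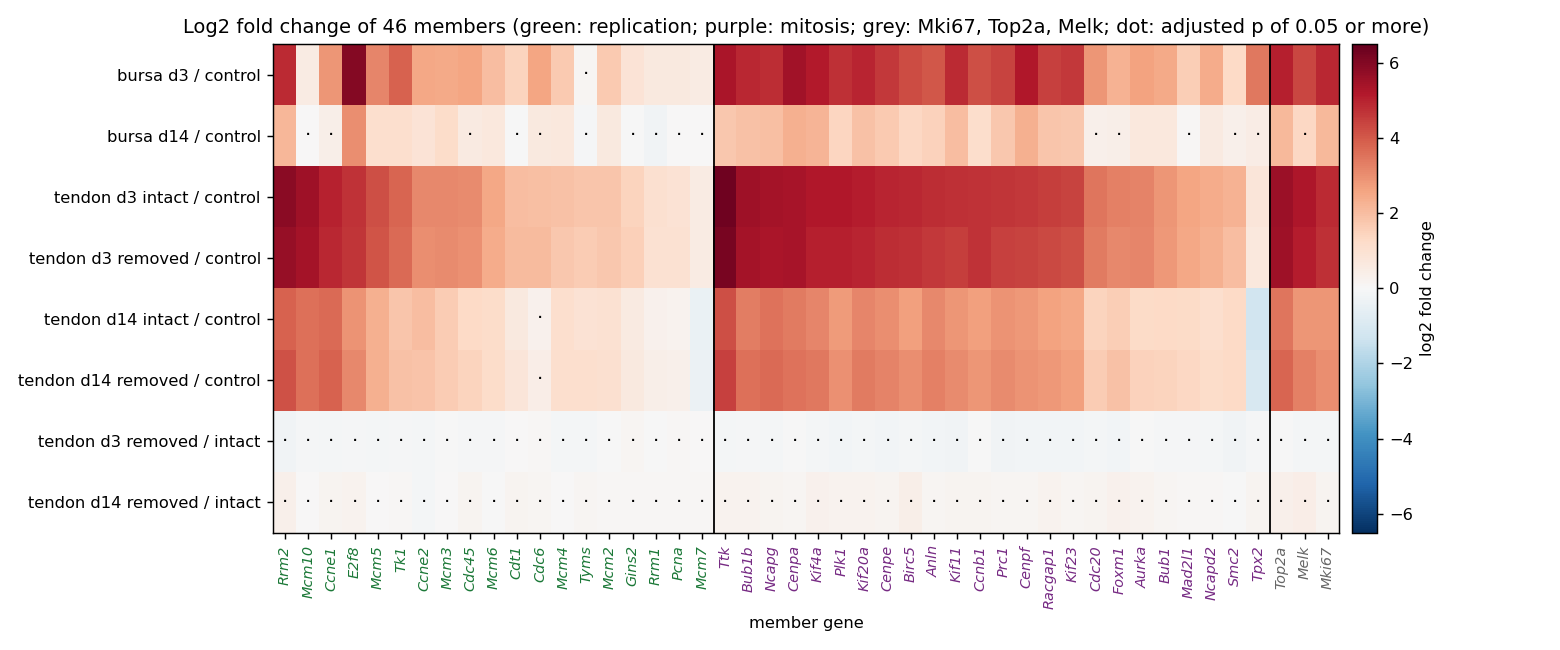
Log2 fold change (colour) of the 46 members with counts (columns, replication members in green, mitosis members in purple, the remaining 3 in grey) in 8 comparisons (rows), with a dot where the adjusted p was 0.05 or more. Nearly all cells of the day 3 rows are red, the day 14 rows are paler and more so in bursa, and the 2 rows of bursa removed against intact are pale with a dot in every cell.

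Mki67, whose protein Ki-67 coats mitotic chromosomes and marks cycling cells, measured 1.58, 2.53, 5.15, 6.18 and 4.90 CPM in the 5 control bursa libraries, the first 2 being the libraries rich in mitochondrial counts. The day 3 bursa ranged from 63.8 to 163 CPM (median 121), and at day 14 from 13.2 to 28.6 (median 16.7). In tendon it went from 5.11 to 7.39 CPM in the controls to between 151 and 212 at day 3 with the bursa intact and between 37.2 and 47.8 at day 14. No operated library of either tissue overlapped its controls. The log2 fold change at day 3 was 4.89 (SE 0.35, edgeR adjusted p = 8.42e-08) in bursa and 4.87 (SE 0.19, edgeR adjusted p = 5.98e-17) in tendon with the bursa intact. Top2a, the topoisomerase that untangles replicated chromosomes, rose by 5.06 (SE 0.38) and 5.56 (SE 0.31) on the log2 scale in the same comparisons. Melk, a kinase abundant in dividing cells, rose by 4.34 in bursa and 5.23 in tendon.

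Among the replication members, the helicase subunits moved by very different amounts. Mcm2 measured 6.83, 7.87, 13.6, 11.7 and 14.1 CPM in control bursa, 22.9 to 42.5 at day 3 and 16.2 to 18.3 at day 14. In tendon it measured 15.2, 14.0, 16.0, 12.4 and 8.85 CPM in the controls, 41.1 to 53.9 at day 3 with the bursa intact and 32.8 to 52.1 with it removed. Every operated library lay above every control of its tissue. The rise at day 3 was 1.70 (SE 0.19, edgeR adjusted p = 4.03e-06) on the log2 scale in bursa and 1.78 (SE 0.14, edgeR adjusted p = 2.10e-11) in tendon with the bursa intact. Mcm5 rose further, by 3.15 (SE 0.23) in bursa and 4.21 (SE 0.26) in tendon, from controls of 1.49 to 3.25 and 1.25 to 2.36 CPM. Mcm7 moved least of the helicase subunits, by 0.55 (SE 0.15) and 0.52 (SE 0.11).

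The clamp and the large reductase subunit also had small changes from controls that were already well expressed. Pcna measured 28.3, 34.1, 30.0, 32.3 and 30.3 CPM in control bursa and 35.4 to 55.9 at day 3, and it rose by 0.63 on the log2 scale (SE 0.11, edgeR adjusted p = 3.41e-04). In tendon it measured 34.3 to 44.8 CPM in the controls and 59.1 to 85.3 at day 3 with the bursa intact, a rise of 0.94 (SE 0.11, edgeR adjusted p = 1.40e-08). At day 3 no Pcna value overlapped the controls in either tissue. Rrm1 rose by 0.64 (SE 0.20) in bursa, where the controls of 28.0 to 64.7 CPM overlapped the day 3 values of 45.8 to 78.0, and by 1.05 (SE 0.11) in tendon without overlap. Its partner Rrm2, the small subunit that limits reductase activity in cycling cells, was near the detection limit in controls. It measured 0.0876, 0.0971, 0.550, 0.592 and 0.380 CPM in control bursa and 0.0753 to 0.381 in control tendon, with 1 to 11 counts per library. At day 3 it reached 6.37 to 12.8 CPM in bursa and 10.9 to 20.7 in tendon with the bursa intact, and the fitted changes were 4.85 (SE 0.39) and 5.88 (SE 0.35).

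The cyclins and factors of S phase entry rose in both tissues at day 3. Cdc6, which loads the helicase, went from 0.592 to 1.23 CPM in control bursa to between 3.24 and 7.50 at day 3, and from 1.02 to 3.66 in control tendon to between 7.39 and 10.3, with fitted rises of 2.56 (SE 0.25) and 1.97 (SE 0.23). Ccne1, a cyclin that starts S phase with Cdk2, rose by 2.87 (SE 0.32) in bursa and 5.02 (SE 0.33) in tendon. Its relative Ccne2 rose by 2.53 (SE 0.19) and 3.14 (SE 0.22). E2f8, a repressor of the E2F family that is itself switched on in S phase, had the highest fitted change of any member in bursa, 5.96 (SE 0.54), from controls of 0 to 0.150 CPM to between 2.89 and 9.04. In tendon it rose by 4.69 (SE 0.33). Tk1 rose by 3.85 (SE 0.23) and 3.78 (SE 0.19).

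The 24 mitosis members with counts all rose at day 3 in each of the 3 operated groups. Ccnb1 measured 0.613, 1.07, 0.699, 0.968 and 1.39 CPM in control bursa and 7.62 to 25.1 at day 3, a rise of 4.21 on the log2 scale (SE 0.31, edgeR adjusted p = 8.94e-08). In tendon it measured 1.22, 1.54, 0.979, 0.435 and 0.567 CPM in the controls and 23.9 to 31.4 at day 3 with the bursa intact, a rise of 4.72 (SE 0.22, edgeR adjusted p = 1.32e-15). Plk1 went from 0.388 to 0.802 CPM to between 7.99 and 22.9 in bursa, and from 0.340 to 0.870 to between 17.7 and 28.5 in tendon, with rises of 4.76 (SE 0.31) and 5.19 (SE 0.30). The groups did not overlap for either gene. The kinesin Kif11, which pushes spindle poles apart, rose by 4.85 (SE 0.38) and 4.75 (SE 0.25). Kif20a, which acts in cytokinesis, rose by 4.94 (SE 0.38) and 5.11 (SE 0.19). The lowest bursa library at day 3 was library 5 for Mki67, Top2a, Ccnb1, Plk1 and Kif11 alike, and it also had the highest mitochondrial share of its group, 29.1%.

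Checkpoint members spread widely. Ttk, the kinase that starts the spindle checkpoint, rose by 5.29 (SE 0.39, edgeR adjusted p = 8.94e-08) in bursa and by 6.32 (SE 0.32, edgeR adjusted p = 4.91e-15) in tendon, the highest value of any member in tendon. Its controls ranged from 0.0876 to 0.484 CPM in bursa and from 0 to 0.454 in tendon, and its day 3 values from 5.51 to 19.1 and from 15.7 to 23.9. Cenpa, the centromeric histone, rose by 5.48 (SE 0.49) and 5.36 (SE 0.24), and Cenpf, a kinetochore protein, by 5.23 (SE 0.46) and 4.59 (SE 0.23). Birc5 (survivin), a subunit of the Aurora B complex, rose by 4.24 (SE 0.26) and 4.88 (SE 0.27). Bub1b, a checkpoint protein, rose by 4.92 (SE 0.44) in bursa and 5.50 (SE 0.26) in tendon, whereas the checkpoint genes Bub1 (2.48 and 2.88) and Mad2l1 (1.61 and 2.58) and their target Cdc20 (2.89 and 3.49) lay below the mitosis medians of 4.40 and 4.69. With the bursa removed the highest tendon values were 6.19 for Ttk, 5.67 for Rrm2, 5.52 for Top2a and 5.41 for Mcm10. Foxm1, the transcription factor that switches on many mitotic genes, had a smaller change of 2.28 (SE 0.19) and 3.26 (SE 0.18).

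**Figure D2:**
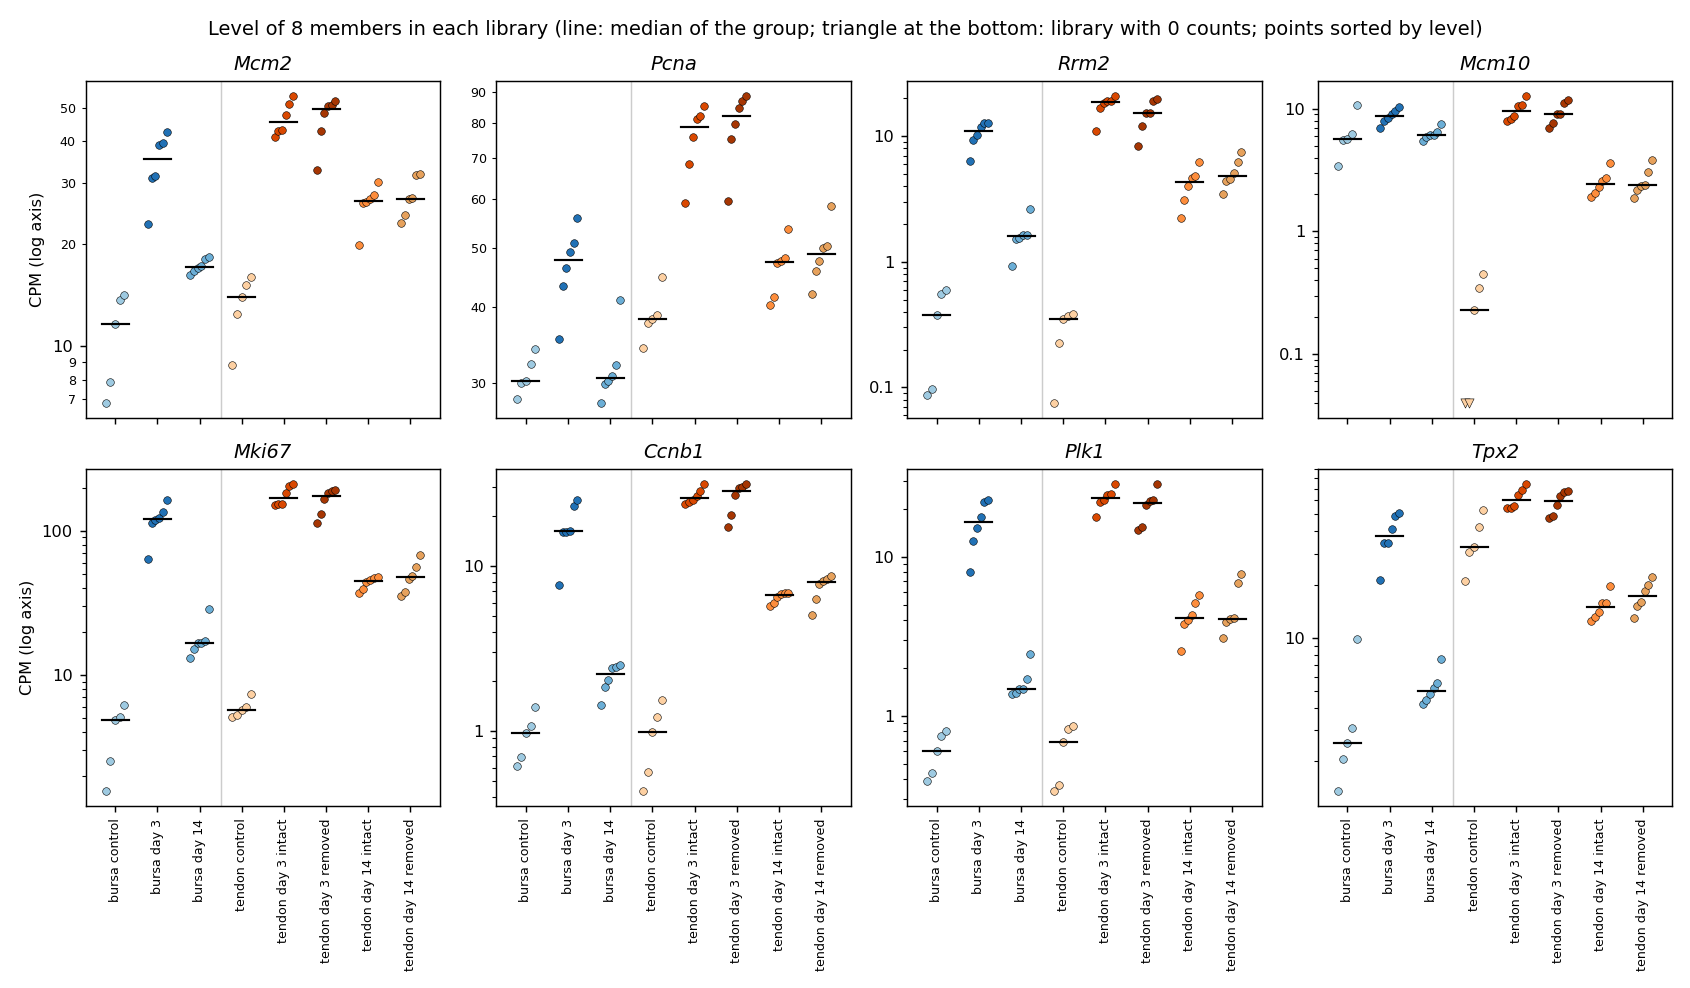
Level in CPM (log axis) of 8 members in each of the 46 libraries, by group, with a line at each median and a triangle for a library with 0 counts. Mcm2, Rrm2, Mki67, Ccnb1 and Plk1 peak at day 3 in both tissues, Pcna spans a narrow range, and Mcm10 and Tpx2 have controls that differ between bursa and tendon.

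Set side by side, the replication members had smaller changes than the mitosis members in each operated group. The day 3 median log2 fold change was 1.98 over 19 replication members and 4.40 over 24 mitosis members in bursa, 2.50 and 4.69 in tendon with the bursa intact, and 2.40 and 4.48 with it removed. For the 10 Mcm, Pcna and Rrm genes against Ccnb1, Plk1 and the 4 Kif genes with counts, the medians were 1.70 and 4.80 in bursa and 2.20 and 4.93 in tendon with the bursa intact. The 10 replication genes spread widely there, from 0.52 for Mcm7 to 5.88 for Rrm2, while the 6 mitotic genes lay between 4.39 and 5.20, so the difference is one of the classes and not of each gene. These medians carry no test, since the classes were set with results known. Members that passed the filter only through the operated groups had low control levels, and more of them were mitosis than replication members. In bursa they included Ccnb1, Plk1 and the 4 Kif genes, and among the replication members Rrm2 and E2f8. How far low control levels set the class difference was not tested.

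The same contrast can be followed in single libraries as the mean log2 CPM of the replication members minus that of the mitosis members. This difference ranged from 1.04 to 1.72 (median 1.21) in control bursa, from -0.61 to -0.10 (median -0.50) at day 3 and from 0.24 to 0.92 (median 0.73) at day 14. In tendon it ranged from 0.59 to 1.25 in the controls, from -0.63 to -0.42 at day 3 with the bursa intact and from -0.15 to 0.08 at day 14. Its size depends on which genes are averaged, so only the order of the groups can be read. Day 3 was lowest and control highest in both tissues, with no overlap between control, day 14 and day 3 in either tissue, the removed-bursa tendon included. Control bursa libraries 1 and 2 had the highest differences, 1.724 and 1.665, against 1.035 to 1.214 in the others. Their mitosis means were -0.144 and 0.133, against 0.656 to 0.797 in the others.

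**Figure D3:**
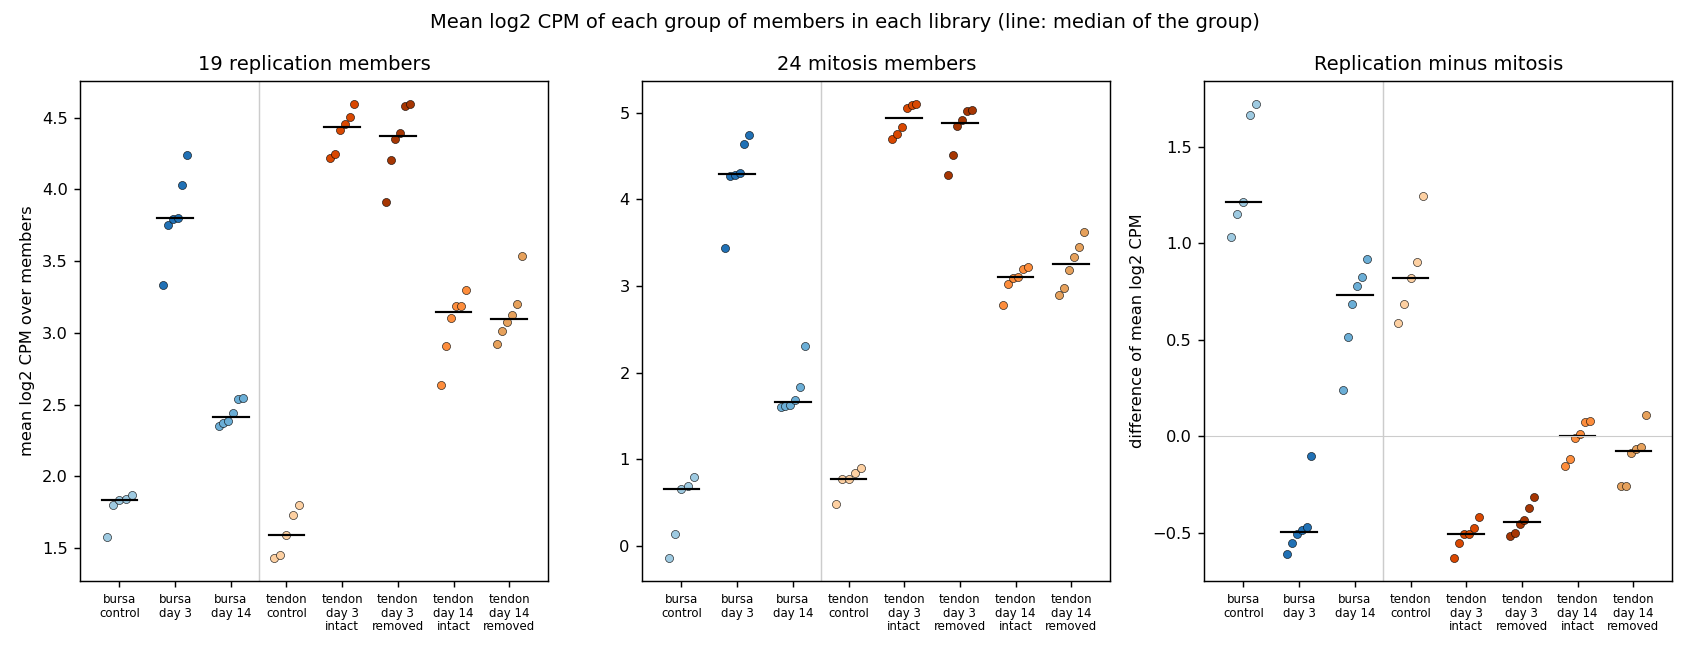
Mean log2 CPM of the replication members, of the mitosis members and their difference in each library, by group, with a line at each median. The mitosis mean moved further than the replication mean between control and day 3, so the difference falls below 0 in every day 3 library of both tissues.

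The promoters of the 2 classes were compared because the E2F factors and the complexes that bind CHR and CCAAT elements are textbook regulators of S phase and mitotic genes, respectively. RefSeq promoters of the build GRCr8, each from 250 bases before to 50 bases after a start, were matched by symbol for 46 of the 57 members, of which 38 also had counts. They were searched on both strands for the E2F letters TTGGCGC or TTCGCGC or TTCCCGC, the CHR letters TTTGAA and TTCGAA, and CCAAT, whose reverse ATTGG can share letters with TTGGCGC. E2F letters stood in 11 of 17 replication promoters (64.7%), 3 of 26 mitosis promoters (11.5%) and 7.52% of all 33469 promoters. CHR letters stood in 3 of 17 (17.6%), 19 of 26 (73.1%) and 19.7%. CCAAT stood in 11 of 17 (64.7%), 20 of 26 (76.9%) and 37.5%, and CHR together with CCAAT in 2 of 17 (11.8%), 16 of 26 (61.5%) and 7.95%. Median GC content was 57.7% in the replication promoters, 60.0% in the mitosis promoters and 51.7% over all. A match is a description of the letters and not a site or a cause.

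Shown here are the 200 bases before the start of 8 members, 5′ to 3′ on the strand of the gene, with every match in capitals. Mcm2 (chr4:122918095-122918294, minus strand), Mcm5 (chr19:13488613-13488812, plus), Pcna (chr3:139955821-139956020, minus), Ccnb1 (chr2:33655226-33655425, minus) and Plk1 (chr1:186147458-186147657, plus) are members the contrast rests on. Cdk1 (chr20:19265093-19265292, plus), which has no counts per library, is shown as the mitotic kinase, and Mcm6 (chr13:42404353-42404552, minus) and Prc1 (chr1:143659281-143659480, plus) were added after the matches were seen as clear examples of each class. Kif20a, first chosen for display, is not shown, and Rrm2, also chosen, had no promoter entry.
Mcm2: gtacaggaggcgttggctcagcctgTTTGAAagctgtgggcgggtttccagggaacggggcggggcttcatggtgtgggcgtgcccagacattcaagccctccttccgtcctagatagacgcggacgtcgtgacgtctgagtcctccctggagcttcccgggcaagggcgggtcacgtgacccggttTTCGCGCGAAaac
Mcm5: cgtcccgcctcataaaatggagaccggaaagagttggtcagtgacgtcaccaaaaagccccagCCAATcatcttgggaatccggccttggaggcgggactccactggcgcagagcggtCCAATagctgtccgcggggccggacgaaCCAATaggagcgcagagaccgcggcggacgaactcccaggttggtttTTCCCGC
Mcm6: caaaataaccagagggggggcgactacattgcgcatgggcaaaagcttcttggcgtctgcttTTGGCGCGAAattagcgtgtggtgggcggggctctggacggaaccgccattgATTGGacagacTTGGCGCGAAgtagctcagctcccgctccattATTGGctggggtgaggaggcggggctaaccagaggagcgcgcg
Pcna: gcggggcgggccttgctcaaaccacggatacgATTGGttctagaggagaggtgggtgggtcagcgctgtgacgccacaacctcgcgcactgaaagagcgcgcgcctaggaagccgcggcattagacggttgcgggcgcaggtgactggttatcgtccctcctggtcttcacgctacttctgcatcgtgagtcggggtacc
Cdk1: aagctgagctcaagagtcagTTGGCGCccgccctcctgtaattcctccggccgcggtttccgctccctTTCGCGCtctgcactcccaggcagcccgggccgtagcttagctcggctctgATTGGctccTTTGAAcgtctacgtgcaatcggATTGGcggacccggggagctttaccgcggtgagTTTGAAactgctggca
Ccnb1: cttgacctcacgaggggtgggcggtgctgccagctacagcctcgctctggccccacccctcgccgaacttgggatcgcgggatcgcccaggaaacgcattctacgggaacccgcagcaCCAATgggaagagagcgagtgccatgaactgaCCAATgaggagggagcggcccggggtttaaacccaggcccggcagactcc
Plk1: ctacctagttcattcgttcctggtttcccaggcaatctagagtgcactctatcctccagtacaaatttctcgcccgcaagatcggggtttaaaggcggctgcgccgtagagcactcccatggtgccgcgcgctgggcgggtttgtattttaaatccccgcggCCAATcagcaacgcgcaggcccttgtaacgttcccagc
Prc1: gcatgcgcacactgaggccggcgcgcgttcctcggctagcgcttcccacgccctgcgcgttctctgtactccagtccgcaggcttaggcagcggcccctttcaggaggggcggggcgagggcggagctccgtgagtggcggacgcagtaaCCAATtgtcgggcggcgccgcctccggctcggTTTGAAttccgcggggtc
The Mcm2 stretch ends in overlapping E2F matches in both directions, the first 13 bases before the start, and its TTTGAA lies at 175, while Mcm5 carries 3 CCAAT and an E2F match at 7. Mcm6 holds E2F matches in both directions at 138 and at 75 bases before the start, with ATTGG at 86 and 43. Prc1, a protein that bundles the central spindle, holds CCAAT at 50 and TTTGAA at 18. Cdk1, the mitotic kinase placed among the mitosis members, holds letters of all 3 kinds: E2F matches at 180 and 132, ATTGG at 81 and 49, and TTTGAA at 72 and 16. Ccnb1 and Plk1 hold CCAAT but no CHR letters in these 200 bases, and Pcna holds only ATTGG at 168. In the full promoters searched, Ccnb1, Kif11 and Kif20a had CCAAT and no CHR letters, while Plk1, Kif23 and Kif4a had both.

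Members with and without each motif were then set beside their day 3 changes. The 20 members with CHR letters and counts had a median log2 fold change of 4.71 in tendon with the bursa intact and 4.47 in bursa, and the 18 without had 3.49 and 2.60. The 11 members with E2F letters had medians of 2.50 and 1.70, and the 27 without had 4.75 and 4.24. The 27 members with CCAAT had 4.65 and 4.24, and the 11 without had 3.21 and 2.61. The ranges overlapped almost fully, from 0.52 to 5.49 with E2F letters and from 0.94 to 6.32 without in tendon, and the E2F and CHR letters follow the classes while CCAAT is common in both, so no test was made.

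By day 14 the members had fallen from their day 3 level in both tissues. From day 3 to day 14, 44 of 46 members fell in bursa, where 12% of all features were called lower, and all 46 fell in tendon with the bursa intact (21.4% of all features) and with it removed (22.2%). The median change over members was -2.54 in bursa, -1.83 in tendon with the bursa intact and -1.52 with it removed, against 0.02, -0.01 and -0.02 over all features. The largest falls in bursa were those of 2 mitotic kinases. Ttk fell by 3.54 (SE 0.31) and Plk1 by 3.35 (SE 0.26) on the log2 scale there, followed by Cenpa at -3.16, Ccnb1 at -3.08 and Kif20a at -3.02, while the kinases Aurka and Bub1 had -1.92 and -1.80. In tendon with the bursa intact Plk1 fell by 2.44 (SE 0.22). Melk fell by 2.37 (SE 0.20) and Birc5 by 2.24 (SE 0.20) in the same comparison. The 2 members not called in bursa were Mcm10 at -0.52 (SE 0.20, edgeR adjusted p = 0.0690) and Tyms at -0.21 (SE 0.15, edgeR adjusted p = 0.341).

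At day 14 the tissues were at different distances from their controls. In bursa 30 of 46 members were still higher and none lower (9.16% of features higher, 6.95% lower), with a median log2 fold change of 1.11. In tendon 43 were higher and 2 lower with the bursa intact (33.5% of features higher, 32.1% lower), with a median of 2.41, and 43 higher and 2 lower with it removed (32.8% and 31.7%), with a median of 2.48. Over all features the medians were -0.05, 0.03 and 0.02. By class, 9 of 19 replication members (median 0.62) and 19 of 24 mitosis members (median 1.60) were higher in bursa. In tendon with the bursa intact, 17 of 19 replication members were higher and 1 lower (median 1.21), and 23 of 24 mitosis members were higher and 1 lower (median 2.72).

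In bursa at day 14 Ccnb1 measured 1.43 to 2.52 CPM, just above its control maximum of 1.39, and the rise of 1.13 (SE 0.29, edgeR adjusted p = 0.0158) was lost under some alternatives, with adjusted p from 0.0557 to 0.0675. Plk1 at 1.38 to 2.45 CPM was higher by 1.40 (SE 0.29, edgeR adjusted p = 4.71e-03), and E2f8 by 3.03 (SE 0.53), Cenpa by 2.32 (SE 0.47), Cenpf by 2.31 (SE 0.42) and Kif4a by 2.22 (SE 0.34). Pcna at 27.9 to 41.0 CPM overlapped its controls, with a change of 0.04 (SE 0.11, edgeR adjusted p = 0.822). The lowest fitted values were -0.20 for Rrm1, -0.06 for Tyms, -0.04 for Gins2 (a subunit of the replicative helicase complex) and -0.03 for Cdt1. Of the 16 members not called in bursa at day 14, 10 are replication members, 5 are the mitosis members Cdc20, Foxm1, Mad2l1, Smc2 and Tpx2, and 1 is Melk. Without control bursa libraries 1 and 2, 25 members were called in place of 30, and the share of all features then called is not given here.

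In tendon at day 14 with the bursa intact, Ttk remained 4.21 (SE 0.33) above the controls on the log2 scale, Rrm2 3.83 (SE 0.36), Ccne1 3.69 (SE 0.33) and Mcm10 3.56 (SE 0.39). Ccnb1 measured 5.75 to 6.83 CPM and Mki67 37.2 to 47.8, each above every control. Pcna rose by only 0.25 (SE 0.10, edgeR adjusted p = 0.0387) and Rrm1 by 0.28 (SE 0.11, edgeR adjusted p = 0.0265), and each call was lost under some alternatives. Cdc6 was the 1 member not called in either tendon group, at 0.30 (SE 0.23, edgeR adjusted p = 0.264) with the bursa intact and 0.41 (SE 0.23, edgeR adjusted p = 0.120) with it removed. Cdc6 is the sum of 2 matched transcripts that moved in opposite directions here. From control tendon to day 14 with the bursa intact, their medians went from 0 to 1.835 CPM and from 1.476 to 0.936 CPM. Every Cdc6 value given here depends on this match, which was not checked against an annotation. Mcm7 and Tpx2 were below the controls. Mcm7 fell from 27.2 to 34.5 CPM in the controls to between 18.5 and 29.4, a change of -0.43 (SE 0.11, edgeR adjusted p = 9.49e-04) with overlap, and it was -0.37 (SE 0.11) with the bursa removed. The highest values with the bursa removed were 4.44 for Ttk, 4.14 for Rrm2, 3.86 for Ccne1 and 3.80 for Top2a.

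Expressed as the part of the day 3 rise in mean CPM still present at day 14, both classes gave like medians within a tissue. In bursa the median was 10.4% over replication members (lowest -57.7%, highest 29.4%) and 10.5% over mitosis members (2.26% to 18.2%). In tendon with the bursa intact it was 24.4% (-56.1% to 41.2%) and 23.4% (-79.9% to 38.3%), and with it removed 28.6% and 30.5%. A negative percent means a day 14 mean below the control. Single genes differed: Mcm2 kept 27.1% of its rise in bursa and 39.0% in tendon with the bursa intact, Mki67 12% and 22.1%, Ccnb1 7.09% and 21.3%, and Plk1 6.63% and 16.0%. For Ccne1, whose day 14 change was not called in bursa, 5.11% was left there and 37.7% in tendon.

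**Figure D4:**
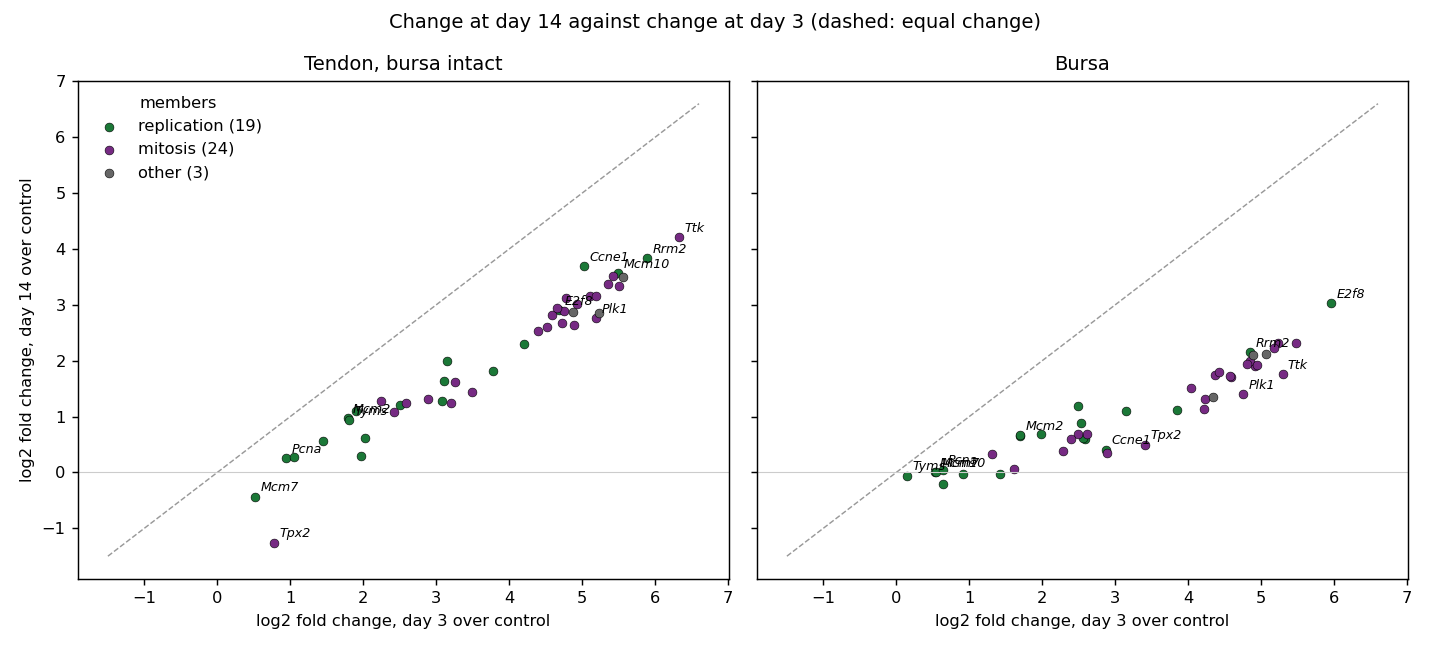
Log2 fold change over control at day 14 (vertical) against day 3 (horizontal) for the 46 members with counts, in tendon with the bursa intact (left) and in bursa (right), with a dashed line at equal change. Every point lies below the line in both tissues, 16 of 46 were not called at day 14 in bursa, and Tpx2 and Mcm7 lie below 0 at day 14 in tendon.

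The responses of bursa and tendon were compared by the difference of their log2 fold changes, each over its own controls, in 1 fit of all 46 libraries. At day 3 the difference was called for 8 of 46 members, 1 larger in bursa and 7 larger in tendon, beside 23.7% of all features (9.5% larger in bursa, 14.2% larger in tendon), and the median over members was -0.56 (-0.09 over all features). The share of members called, 8 of 46, is not above the background share. At day 14 it was called for 27 of 46, 1 larger in bursa and 26 larger in tendon, beside 34.2% of all features (15.1% and 19.1%), with a median of -0.96 (-0.04 over all features). Among the 26 were 8 of 19 replication members (median of the class -0.61) and 16 of 24 mitosis members (median -1.14). The day 3 count was 13 without bursa day 3 library 1 and 15 without control bursa libraries 1 and 2, and the day 14 count was 37 without those 2 control libraries. With 1 library left out at a time, 3581 to 4833 features were called at day 3 and 5529 to 6936 at day 14. The share of all features called in each of these settings is not given here, so these counts are not set against a background.

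At day 14 the response of Ttk was smaller in bursa by 2.49 on the log2 scale (SE 0.54, edgeR adjusted p = 4.67e-04), that of Rrm2 by 1.72 (SE 0.53, edgeR adjusted p = 0.0111), that of Ccnb1 by 1.58 (SE 0.37, edgeR adjusted p = 9.04e-04) and that of Plk1 by 1.37 (SE 0.44, edgeR adjusted p = 0.0133). Mki67 missed the threshold, with a difference of -0.78 (SE 0.32, edgeR adjusted p = 0.0586). The lowest differences at day 3 were -5.03 for Mcm10, -2.19 for Ccne1, -1.72 for Tyms and -1.13 for Mcm5, and the 1 called in the other direction was Tpx2 at 2.60. The difference at day 3 for Ccnb1 was -0.59 (SE 0.36, edgeR adjusted p = 0.245) and for Plk1 -0.51 (SE 0.43, edgeR adjusted p = 0.420). Muscle markers fell by a median of 3.22 on the log2 scale in the same tendon comparison at day 14 and did not move past the threshold in bursa. With library totals scaled without mitochondrial genes and the 6 matched muscle markers, 26 members were called at day 14. The differences of Ttk and Ccnb1 were then -2.48 and -1.57, and the share of all features called is not given here. This setting changes only the scaling, and the part of muscle in the difference was not tested.

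Several members already differed between the tissues before injury. Mcm10, which helps start the replication fork, measured 5.52, 10.7, 3.40, 6.18 and 5.61 CPM in control bursa and 0.229, 0, 0.452, 0.348 and 0 in control tendon, with 0 counts in 2 tendon libraries. At day 3 both tissues were at a like level, 7.02 to 10.4 CPM in bursa and 7.91 to 12.6 in tendon with the bursa intact. The fitted rise was thus 0.52 (SE 0.21, edgeR adjusted p = 0.0491) in bursa, lost under some alternatives with adjusted p from 0.0513 to 0.113, and 5.49 (SE 0.38) in tendon, where it depends on how the 2 libraries at 0 are treated. Tyms followed the same course: 11.3 to 17.7 CPM in control bursa against 3.20 to 4.89 in control tendon, and 10.6 to 18.9 against 11.2 to 16.9 at day 3. It was the 1 member not called in bursa at day 3, at 0.15 (SE 0.15, edgeR adjusted p = 0.464), and it rose by 1.81 (SE 0.14) in tendon.

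Ccne1 was also higher in control bursa, by 1.52 (SE 0.38, edgeR adjusted p = 8.60e-04), with 0.323 to 0.964 CPM against 0.0753 to 0.567. Tpx2, which activates Aurora A on the spindle, was the reverse. It measured 9.81, 1.36, 2.05, 2.53 and 3.08 CPM in control bursa and 21.0, 30.6, 42.2, 32.6 and 53.1 in control tendon, a difference of -3.29 (SE 0.31, edgeR adjusted p = 1.18e-11). By day 3 the bursa reached 21.1 to 51.0 CPM and the tendon 54.0 to 74.4, rises of 3.41 (SE 0.42) and 0.77 (SE 0.17). At day 14 the tendon stood at 12.5 to 19.6 CPM, below every control, a fall of 1.26 (SE 0.17, edgeR adjusted p = 4.77e-07). The high level of Tpx2 in control tendon came from 1 of its 2 matched transcripts, with 20.3 to 51.1 CPM in control tendon against 0.686 to 4.86 for the other. The assignment of this transcript to Tpx2 rests on the match to the deposited values and was not checked against an annotation, and every Tpx2 value given here depends on it.

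Between the control tissues as a whole, 11 of 46 members differed, 4 higher in bursa (Mcm10, Tyms, Ccne1 and Foxm1) and 7 lower (Tpx2, E2f8, Cdc6, Cenpf, Tk1, Mcm7 and Pcna), beside 50.6% of all features (28.9% higher, 21.7% lower). Read against that background, no excess of called members was seen. The median over members was -0.07, and 0.09 over all features. Cdc6 was lower in control bursa by 1.33 (SE 0.26) and Cenpf by 1.19 (SE 0.35) on the log2 scale. The Cdc6 value depends on the match of its 2 transcripts. When only the 2 control groups were fitted, 36 members could be tested and 5 were called. The share of all features called in that fit is not given here.

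Removing the bursa changed no member past the threshold at either time. At day 3 the log2 difference, removed minus intact, ran from -0.25 for Smc2, a condensin subunit, to 0.11 for Gins2, with a median of -0.12 (-0.01 over all features). The 95% intervals of the members together spanned -0.67 to 0.48. By edgeR 0 of 46 members and 0% of all features were called, and 0 members had an unadjusted p below 0.05, where 7.55% of all features did. At day 14 the difference ran from -0.13 for Ccne2 to 0.44 for Melk, with a median of 0.15 (-0.00 over all features) and intervals spanning -0.50 to 0.85. By edgeR 0 members and 0% of all features were called, and 1 member, Melk at 0.44 (SE 0.20), had an unadjusted p below 0.05, where 1.3% of all features did. DESeq2 called 0 members at each time, and 15 and 3 features in all.

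Kif11 at -0.24, Rrm2 at -0.22 and Prc1 at -0.21 were next lowest at day 3, and Birc5 at 0.36, Top2a at 0.31 and Rrm2 at 0.30 were next highest at day 14. Ccnb1 measured 23.9 to 31.4 CPM at day 3 with the bursa intact and 17.3 to 31.4 with it removed, a difference of -0.03, and 5.75 to 6.83 against 5.05 to 8.63 at day 14, a difference of 0.19. Mcm2 measured 41.1 to 53.9 against 32.8 to 52.1 CPM at day 3 and 19.7 to 30.3 against 22.9 to 31.9 at day 14. The groups overlapped for both genes at both times. The replication and mitosis medians were -0.08 and -0.13 at day 3, and 0.08 and 0.19 at day 14. The intervals do not exclude a change of the size of their bounds in single genes, so a like level in both arms was not shown. With the replicate number as a block, 0 members were called at either time.

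**Figure D5:**
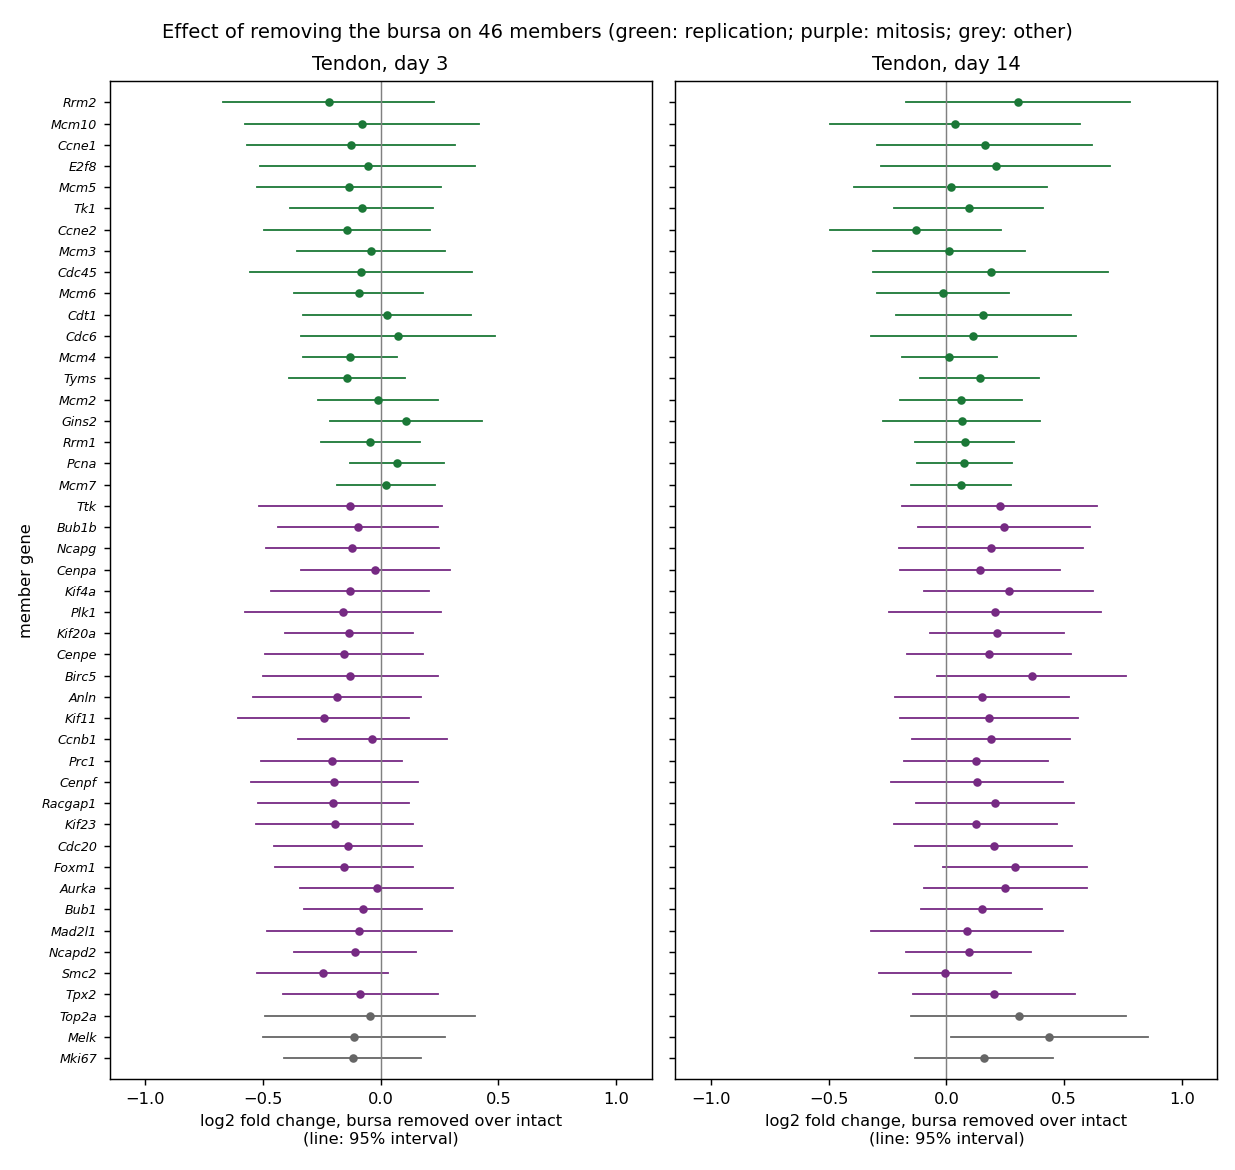
Log2 fold change with its 95% interval for each of the 46 members, tendon with the bursa removed over tendon with it intact, at day 3 (left) and day 14 (right). At day 3, 5 of 46 points lie right of 0, and 43 of 46 at day 14, and the intervals of all but Melk at day 14 include 0.

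For 8 members only the authors' deposited table gives values, since their transcripts could not be matched. Set against the counts, all 11 deposited comparisons give the group named second over the group named first. For 8 of the 11, all of those over control included, this is the reverse of the direction used here. Their sign was turned, so that those over control read as injured over control. With the sign turned, in the authors' deposited table all 54 members were higher in tendon at day 3, where 60.0% of symbols with an adjusted p passed in either direction with the bursa intact, and 52 of 54 were higher in bursa, where 43.8% passed. In the authors' deposited table, turned in the same way, Cdk1 had log2 fold changes of 4.88 in bursa and 5.41 in tendon with the bursa intact at day 3, and 1.83 and 3.24 at day 14. Ccna2, the cyclin of S phase and early mitosis, had 5.15 and 5.04 at day 3 and 1.90 and 3.00 at day 14 in the authors' deposited table. Uhrf1, which carries DNA methylation over to the new strand, had 4.37 and 4.15 at day 3, and Brca1, a repair factor, 3.15 and 2.82 in the authors' deposited table. The authors' deposited table gave the mitotic kinase Aurkb 2.15 and 2.88 at day 3 and 0.10 and 1.05 at day 14, the bursa value at day 14 not passing (adjusted p of 0.66). Kif2c, Nusap1 and Ect2, which act on spindle microtubules and in cytokinesis, had 5.44, 4.27 and 4.99 in bursa at day 3 in the authors' deposited table.

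Related genes outside the 57 followed the classes in part. Of 33 fork and origin genes tested, 27 rose and none fell in bursa at day 3 (median 1.04), and 30 rose and 1 fell in tendon with the bursa intact (median 1.47), where 21.9% and 32.3% of all features were called higher. Orc1, a subunit of the origin complex, rose by 5.57 (SE 0.40) and Pole2, of polymerase epsilon, by 4.15 (SE 0.37) in tendon, and the exception was Rpa1, the single-strand binding subunit, at -0.19 (SE 0.06, edgeR adjusted p = 9.2e-03). At day 14 the bursa had 4 of the 33 higher and the tendon 23 higher and 3 lower (Dut, Rpa1 and Pola2). The bursa count is near the 9.16% of all features called higher there, and in tendon 33.5% were higher and 32.1% lower. Of 11 genes of repair at forks, 9 rose in bursa (median 1.41) and 11 in tendon (median 1.76) at day 3.

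Of 39 further genes of the spindle, kinetochore and cytokinesis, 38 rose and 1 fell at day 3 both in bursa (median 3.64) and in tendon with the bursa intact (median 3.93). The exception was Zwint, a kinetochore protein, which fell by 0.65 (SE 0.10) in bursa and by 0.99 (SE 0.13) in tendon. Over all features 21.9% in bursa and 32.3% in tendon were called higher at day 3. At day 14, 25 were higher and 1 lower in bursa (median 1.22), and 37 higher and 1 lower in tendon (median 2.30), Zwint again being the 1 lower. The shares of all features at day 14 were 9.16% higher and 6.95% lower in bursa, and 33.5% and 32.1% in tendon. Of the cyclins, kinases and factors of cell cycle entry outside the members, 5 of 8 rose and 1 fell in bursa at day 3. In tendon with the bursa intact 6 of 9 rose and 3 fell. Over all features 21.9% were called higher and 23.7% lower in bursa, and 32.3% and 32.5% in tendon. The shares that fell are near or below that background and are no result about the list. Ccnd1, a D-type cyclin of G1, measured a change of -0.26 (SE 0.17) in bursa, not called, and fell by 0.45 (SE 0.08) in tendon, and its relative Ccnd2 fell by 0.97 (SE 0.20) and 0.28 (SE 0.11), while Ccnd3 had 0.01 (SE 0.14), not called, and rose by 0.68 (SE 0.09). Mybl2, a partner of Foxm1, rose by 5.16 (SE 0.30) and 5.71 (SE 0.38), and Cdk4 by 0.83 (SE 0.10) and 1.09 (SE 0.09).

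Of 19 tested genes that hold back the cycle, 4 rose and 5 fell in bursa at day 3 (median 0.11), beside 21.9% and 23.7% of all features. In tendon with the bursa intact 6 rose and 8 fell (median 0.10), beside 32.3% and 32.5% of all features. The shares called higher are near the background and are no result about the list. The E2F repressor E2f7 rose by 3.83 (SE 0.37) and 5.07 (SE 0.38), and the pocket protein Rbl1 by 2.22 (SE 0.26) and 2.24 (SE 0.20). The antiproliferative Tob1 fell by 1.86 (SE 0.51) and 2.10 (SE 0.18) and Klf4 by 1.31 (SE 0.13) and 1.95 (SE 0.24). Cdkn1a (p21) had changes of 0.91 (SE 0.58) and 0.28 (SE 0.19), neither called. Cdkn1c (p57), an inhibitor of cyclin-dependent kinases, rose later in tendon, by 3.06 (SE 0.27) at day 14 after 0.52 (SE 0.25, not called) at day 3, and in bursa by 1.40 (SE 0.28) at day 3 and 2.10 (SE 0.29) at day 14.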

How the data were processed

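RNA of 17 bursa and 29 tendon libraries was quantified by the authors with kallisto 0.44.0 and compared with DESeq2, per the labels and the submitters' processing notes, which also name bcl2fastq 2.19. The genome build and annotation of the transcripts were not given in the sources used here. Per the file headers, the deposited table of all libraries holds estimated counts per transcript, as whole numbers in each of 46 columns. The deposited gene tables hold, per symbol, the authors' mean signal (normalized counts averaged over the libraries compared), log2 fold change, p-value and adjusted p-value for 11 comparisons.

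The files do not pair transcripts with symbols. Each symbol was therefore tied to the 1 or 2 transcripts whose scaled counts give its deposited means in all 11 comparisons. This matched 12813 of 23747 symbols and 14628 of 31715 transcripts, which carry 88.7% of all counts (86.8% to 94.7% per library). The same values moved by 7%, with random noise added separately in each comparison, gave 8 decoy matches in the first 2 rounds (0.0639% of those made). They gave 7 in the third round, which made 289. Such noise itself makes a match in all 11 comparisons unlikely, so these rates do not measure how often a match is wrong. All 11 deposited comparisons give the group named second over the group named first. For 8 of the 11 this is the reverse of the direction used here, and their sign was turned. Over the members, edgeR's log2 fold changes then differed from the deposited ones by a median of 0.0112 and at most 0.403, a likeness that the matching itself builds in. Unmatched transcripts were kept as features of their own, 29900 features in all.

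Estimated counts were tested with edgeR 4.0.16 (quasi-likelihood, filter on low counts, TMM scaling) in R 4.3.3, in 1 fit each for the bursa (16729 features), the tendon (16791) and all libraries (17693), with Benjamini-Hochberg adjustment over all features and a threshold of 0.05. Mean log2 CPM used a prior count of 2, and intervals are at 95%. Alternatives were DESeq2 1.42.0, other scalings and filters, the replicate number as a block and leaving out libraries. Each fit was tested on simulated data. For removed against intact, 71% of 2-fold changes were recovered at day 3 (16552 features) and 77% at day 14 (16525 features). Over control it was 53.5% at day 3 and 55.6% at day 14 in bursa, and 79% at each time in tendon with the bursa intact. For the responses of bursa against tendon it was 54% at day 3 and 49% at day 14. Counts of called members in bursa and in tendon therefore do not rest on like power. The files were used as deposited, and no library was left out of the reported values.

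Libraries were grouped by the labels' tissue, treatment and day. Levels or changes, not in every group for each gene, are given for a fixed set of members. They are also given for others that had the 4 highest or 4 lowest changes, were not called where at most 10 were not, or were called against most. Members, pathway lists and marker lists were chosen with earlier results of these data known. Same-numbered libraries were compared by the correlation of their deviations from the group means. For removed against intact, 4 of 6 matched their own number best at day 3 (0.05 to 0.41) and 6 of 6 at day 14 (0.10 to 0.31). For bursa against tendon with the bursa intact it was 5 of 6 at day 3 (0.09 to 0.19) and 4 of 6 at day 14 (0.04 to 0.18). No label says what the numbers share, and the reported tests and intervals did not use them as pairs.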

Additional observations from a re-analysis of the deposited data

Results flagged for a closer look

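In 8 of 136 gene and group pairs examined (5.88%), 1 library stood apart from the rest of its group. Chance flags about 1 in 20 groups. In bursa at day 14, library 4 was the highest for Mki67 (28.6 CPM, next 17.1), Top2a (17.4, next 9.27), Plk1 (2.45, next 1.70) and Cenpf (9.86, next 5.04), and library 6, the library with the highest total, was the highest for Pcna (41.0, next 32.1). In bursa at day 3, library 5 was the lowest for Top2a (36.5 CPM, next 75.8) and Kif11 (13.4, next 26.1). In tendon at day 14 with the bursa intact, 1 library was the highest for Cenpf (26.5 CPM, next 18.3).

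The difference of the responses of bursa and tendon passed its own test in edgeR for 8 members at day 3. Negative values mean a smaller rise in bursa. The log2 differences were -5.03 for Mcm10, -2.19 for Ccne1, -1.72 for Tyms, -1.13 for Mcm5, -1.03 for Foxm1, -1.02 for Mad2l1 and -0.98 for Smc2. Tpx2 had 2.60.

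At day 14 it passed for 27 members. Among the replication members the log2 differences were -3.57 for Mcm10, -3.29 for Ccne1, -1.72 for Rrm2, -1.21 for Mcm5, -1.11 for Ccne2, -1.0 for Tyms, -0.71 for Tk1 and -0.61 for Gins2. Among the mitotic kinases and checkpoint genes they were -2.49 for Ttk, -1.58 for Ccnb1, -1.45 for Bub1b, -1.37 for Plk1, -1.18 for Mad2l1, -1.11 for Cdc20 and -0.65 for Bub1. The genes of spindle, centromere and cytokinesis had -1.64 for Anln, -1.35 for Birc5, -1.34 for Cenpe, -1.27 for Kif20a, -1.23 for Prc1 and -0.84 for Racgap1, and Tpx2 had 1.77. The condensin genes Ncapg and Smc2 had -1.58 and -0.96, Foxm1 -1.23, Melk -1.52 and Top2a -1.41. Of these members 8 lost the call under some settings: Tk1 under 22, Racgap1 under 20, Bub1 under 16 and Gins2 under 14. Melk lost it under 5, Bub1b and Top2a under 2 each and Birc5 under 1.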

How the results depend on the processing

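Across 14 comparisons the number of members called stayed within 1.5 times the reported number under all but 3 of the settings tried. Between the control tissues, fitting only those groups gave 5 in place of 11. The day 3 difference of responses gave 13 without bursa day 3 library 1 and 15 without control bursa libraries 1 and 2, in place of 8. Leaving out 1 library at a time gave 44 to 45 members in bursa at day 3 (6679 to 7785 of all features) and 25 to 31 at day 14 (1863 to 3517). In tendon it gave 46 to 46 at day 3 (10505 to 10786 features with the bursa intact, 9940 to 10731 with it removed). At day 14 with the bursa intact it gave 43 to 45 (10650 to 10847). Between the control tissues it gave 9 to 15 (8348 to 9087). The day 3 responses gave 8 to 13 (3581 to 4833) and the day 14 responses 21 to 35 (5529 to 6936). For the other settings the features called in all are not given here, so their counts of members are not set against a background. The median log2 fold change of replication members minus that of mitosis members kept its sign under every setting run in each comparison over control, between days, and of removed against intact, and changed sign under some settings for the control tissues and the day 3 responses, where it was near 0 (0.003 and -0.092). Of the called values of single members, 7925 stayed called and 166 lost the call, with none reversed among the settings run. Of the 4364 values of uncalled members, 203 changed sign and 100 became called. In bursa at day 14 calls were lost for Bub1, Mcm2, Mcm6, Ccnb1, Aurka, Ncapd2 and Mcm4 under at least 1 setting. The day 14 responses held the most lost calls, 82 values of 8 members, and the control tissues 19 values of 6 members. The cause of these changes was not tested.

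With the replicate number as a block, 25 members were called in bursa at day 14 in place of 30, 27 for the day 14 responses, 9 for the day 3 responses, 10 between the control tissues, and 0 for bursa removed against intact at each time. At day 14 same-numbered removed and intact tendons deviated together. This block joined equal numbers over controls and both days, so it was not a paired fit within day 14. With a block within each day, no member was called for removed against intact at either time. At day 3, and between bursa and tendon, the numbers did not pair every library, and no label ties a number to a rat. The block within each day, and the settings without control bursa libraries 1 and 2 together, were chosen after seeing the data. Depth limits members whose control libraries held few counts or 0, such as Rrm2, Ttk, E2f8 and, in tendon, Mcm10.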
